A study of Mus musculus with 3 samples.

Results

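Gas6 and protein S are the secreted ligands of the TAM receptor tyrosine kinases Tyro3, Axl and Mertk, and all 5 genes were examined in mouse marrow cells marked by a nestin-GFP reporter. The genes were chosen by name, with their levels in these data already known, so their levels are given as a description and without a test. A probeset was used where the platform annotation names exactly 1 of the genes by a current or former symbol, which gave 122 of the 318760 probesets with 1 symbol. The 5 genes are among 18865 genes with at least 4 such probesets.

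The data are 3 Affymetrix arrays, numbered 1 to 3 as in the sample titles, in a single group, and no control samples were used. Each was hybridised with RNA of GFP-positive cells taken fresh from the marrow of C57BL/6 mice and sorted by flow cytometry, amplified and labelled with biotin. Every sample carries the same transgene, in which the nestin promoter drives GFP, and GFP is the only selection marker the labels name, so any marrow cell in which that promoter is active can be in the sort. The labels give neither the animals' age nor whether the samples came from separate mice, so every SD and p-value covers the spread of these 3 samples alone, and that spread may be technical. In bulk RNA of this kind, fewer cells of a type and less RNA per cell cannot be told apart.

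Gas6 and protein S are made by vitamin K-dependent carboxylation of a glutamate-rich (Gla) domain, which binds phosphatidylserine on the surface of dying cells and shed membranes. The other end of the ligand binds the receptor, so the ligand bridges the dying cell to a phagocyte or to a neighbouring cell. Gas6 binds all TAM receptors, whereas protein S acts on Tyro3 and Mertk and is also a cofactor of the anticoagulant pathway. In marrow, Mertk and Axl are best known from macrophages, where they drive the clearance of dying cells and dampen cytokine signalling, and Axl is also found in stromal cells.

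Values are log2 expression values, and the value of a gene on an array is the median over its probesets. A background was measured on the same array from 355 olfactory, vomeronasal and bitter taste receptor genes, whose 95th percentile was 5.40, 5.66 and 5.64 on arrays 1, 2 and 3. The margin of a gene is its value minus this threshold, and the margins of different genes are not read as an order of expression, because probes differ in affinity. Among the 12 perivascular stroma markers 11 passed limma's one-sided test against this threshold (Benjamini-Hochberg adjusted p under 0.05), as did all 8 measured osteoblast markers, where 50.6% of all genes passed. Nes itself, whose promoter drives the reporter, did not (5.58 ± 0.38, SD, n = 3, adjusted p = 0.757, limma). In the endothelial list 12 of 15 members passed, and in the macrophage and monocyte list 4 of 14. Over the 99th percentile of the chemosensory genes, limma called 0 of 15 endothelial genes (4 at an unadjusted p under 0.05) and 0 of 14 macrophage and monocyte genes (0 unadjusted), while the perivascular stroma count stayed at 11 of 12. Among all 18865 genes it called 3797 at that percentile. The number of arrays limits the precision.

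Both ligand genes stood above the background on every array, as did the receptor genes Axl and Mertk, while Tyro3 lay around the threshold. That is 4 of 5 genes, and 55.0% of all genes were above the threshold on all 3 arrays. The same 4 genes are those that pass the fit across all genes, where 50.6% pass, and nothing is read from either count because the levels were known when the genes were chosen. Against a stricter threshold, the 95th percentile of 30 genes of liver, photoreceptors and spermatids (7.25, 7.08 and 6.93 on arrays 1, 2 and 3), 2 of the 5 genes, Gas6 and Pros1, were above on all 3 arrays, compared with 19.6% of all genes.

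**Figure D1:**
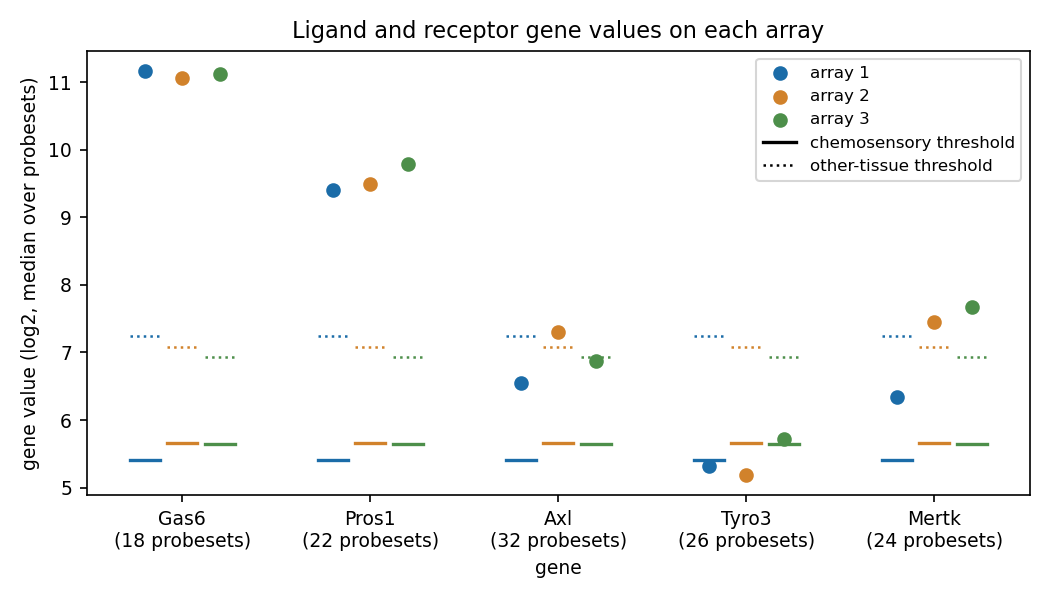
Gene values (log2, median over probesets) of the ligands Gas6 and Pros1 and the receptors Axl, Tyro3 and Mertk on arrays 1, 2 and 3, 1 point per array. Short solid lines are the chemosensory threshold of each array and dotted lines the stricter other-tissue threshold. Gas6 sits at 11.07 to 11.16, Mertk runs from 6.34 on array 1 to 7.67 on array 3, and Tyro3 lies near the solid lines.

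Gas6, which encodes the ligand of all TAM receptors, gave nearly the same value on every array. Arrays 1, 2 and 3 gave 11.16, 11.07 and 11.12, with a mean of 11.12 ± 0.05 (SD, n = 3). Its range of 0.10 on the log2 scale was narrow, since 3.32% of all genes had a smaller range and the median range of a gene was 0.51. Its margin over the threshold was 5.76, 5.41 and 5.48 on arrays 1, 2 and 3. The gene value rests on 18 probesets. All 18 exceeded the 95th percentile of single chemosensory probesets (7.21, 7.38 and 7.16 on arrays 1, 2 and 3) on every array, where 24.8% of all probesets with 1 symbol did. The lowest, probeset 5050155, had a mean of 7.77 and the highest, 5530816, a mean of 12.78. No Gas6 probeset had a range of 1 or more over the arrays, which 39.3% of all probesets with 1 symbol had.

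The sequence before the Gas6 start is shown because Gas6 gave nearly the same value on every array. These are the 250 bases before the RefSeq start in GRCm38.p6, chr8:13494536-13494785 on the minus strand, written 5′ to 3′, and capitals mark the GC box GGGCGG or its reverse complement CCGCCC, the letters bound by Sp-family factors in many promoters.
Gas6: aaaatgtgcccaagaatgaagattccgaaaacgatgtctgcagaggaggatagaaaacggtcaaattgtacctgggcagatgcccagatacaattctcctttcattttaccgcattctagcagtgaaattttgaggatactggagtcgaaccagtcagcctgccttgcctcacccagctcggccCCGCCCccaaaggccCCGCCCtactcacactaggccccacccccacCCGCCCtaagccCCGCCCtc
It holds 4 copies of CCGCCC and none of GGGCGG, and no TATAAA on either strand. The GC box is in 32.7% of 32851 windows of the same length before RefSeq starts, and TATAAA in 12.4%. A match is a description of letters, and the arrays did not measure binding or promoter use.

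Pros1, which encodes protein S, was also above the threshold on every array and differed little between arrays. The values of arrays 1, 2 and 3 were 9.41, 9.49 and 9.79, with a mean of 9.56 ± 0.20 (SD, n = 3), with margins of 4.01, 3.83 and 4.15. Array 3 was the highest, and the range of 0.38 was below the median range of 0.51 over all genes. Of 22 Pros1 probesets 19 (86.4%) were above the probeset threshold on all 3 arrays and 2 on none. Among all probesets with 1 symbol 24.8% were above on all 3 arrays, and the share above on none was not computed. The 2 that were never above were probeset 5568937, with 1.52, 1.47 and 3.88, and probeset 4919695, with 5.54, 6.27 and 6.52. The highest was 5560443, with 12.27, 12.36 and 12.33. Probesets with lower values varied more, with a median range of 0.98 over the lower 11 by mean and 0.28 over the upper 11.

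Axl, the receptor that Gas6 engages most strongly, was above the threshold on every array, with values that differed between arrays. Its values were 6.55, 7.31 and 6.87 in array order, and their mean was 6.91 ± 0.38 (SD, n = 3). Array 2 was the highest and array 1 the lowest, 0.76 apart on the log2 scale, which is 1.69-fold. Of all genes 71.5% had a smaller range. The margins were 1.15, 1.65 and 1.23 on arrays 1, 2 and 3. Against the other-tissue threshold they were -0.70, 0.23 and -0.07, so Axl passed it on array 2 alone.

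The 32 Axl probesets were spread widely. Of these 7 (21.9%) exceeded the probeset threshold on all 3 arrays and 15 on none, beside 24.8% above on all 3 arrays among all probesets with 1 symbol. The highest, 5449310, had 10.72, 10.63 and 10.92, and 5092754 was as steady, with 10.48, 10.60 and 10.44. The lowest by mean, 4578986, had 3.46, 3.55 and 2.56. The median difference of array 2 from array 1 was 0.07 over the lower 16 probesets by mean and 0.63 over the upper 16. Single probesets could differ by far more. Probeset 5430684 had 2.37, 8.94 and 7.40 in array order, and it and probeset 5092754 were picked after their values were seen. Of 32 probesets 21 were higher on array 2 than on array 1, compared with 48.4% of all probesets with 1 symbol. By at least 1 on the log2 scale, 12 were higher on array 2 and 1 was higher on array 1, compared with 11.7% and 13.2% of all probesets. Leaving out array 1, 13 Axl probesets were above the threshold on the other arrays. Leaving out an array cannot lower this count, and the share over all probesets was not computed for it. Probesets of 1 gene share their target and library and are not replicates.

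Mertk, the receptor best known for clearing dying cells, had the widest range between arrays of the 5 genes by the median over probesets. Its values were 6.34, 7.45 and 7.67 in array order, and their mean was 7.15 ± 0.72 (SD, n = 3). Array 1 stood apart from the other arrays, with a range of 1.33 on the log2 scale or 2.52-fold, and 92.8% of all genes had a smaller range. The margins over the threshold were 0.94, 1.79 and 2.03. Against the other-tissue threshold they were -0.91, 0.37 and 0.74, so Mertk passed it on arrays 2 and 3 and not on array 1.

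Most Mertk probesets were lowest on array 1, as the gene value was. Of 24 probesets 15 were lowest there, beside 32.7% of all probesets with 1 symbol. Of the same probesets 17 were higher on array 2 than on array 1 and 19 were higher on array 3 than on array 1, beside 48.4% and 45.8% of all probesets with 1 symbol. By at least 1 on the log2 scale, 11 were higher on array 2 and 2 on array 1, where 11.7% and 13.2% of all probesets were. By the same margin 12 were higher on array 3 and 1 on array 1, where 10.4% and 11.0% of all probesets were. Between arrays 2 and 3 the probesets were split, with 10 higher on array 3. The median difference of array 2 from array 1 was 0.70 over the lower 12 probesets by mean and 0.63 over the upper 12. Both parts held probesets that were not above the probeset threshold on every array. Above the probeset threshold on all 3 arrays were 5 probesets (20.8%), beside 24.8% of all probesets with 1 symbol, and 7 were above on none. Those 5 did not share the order of the gene value. Probesets 5305664 (7.46, 9.07 and 8.95) and 5246939 (8.55, 9.07 and 9.01) were lowest on array 1. Probesets 5301175 (7.67, 7.59 and 9.43) and 4564586 were lowest on array 2, and 4450773 (8.17, 8.65 and 7.65) on array 3. The highest, 4564586, had 9.75, 8.88 and 9.50 and the lowest, 4673259, had 5.47, 3.67 and 4.89, and neither was lowest on array 1. Leaving out array 1, which cannot lower the count, 9 Mertk probesets were above the threshold on the other arrays, and nothing is read from the rise.

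**Figure D2:**
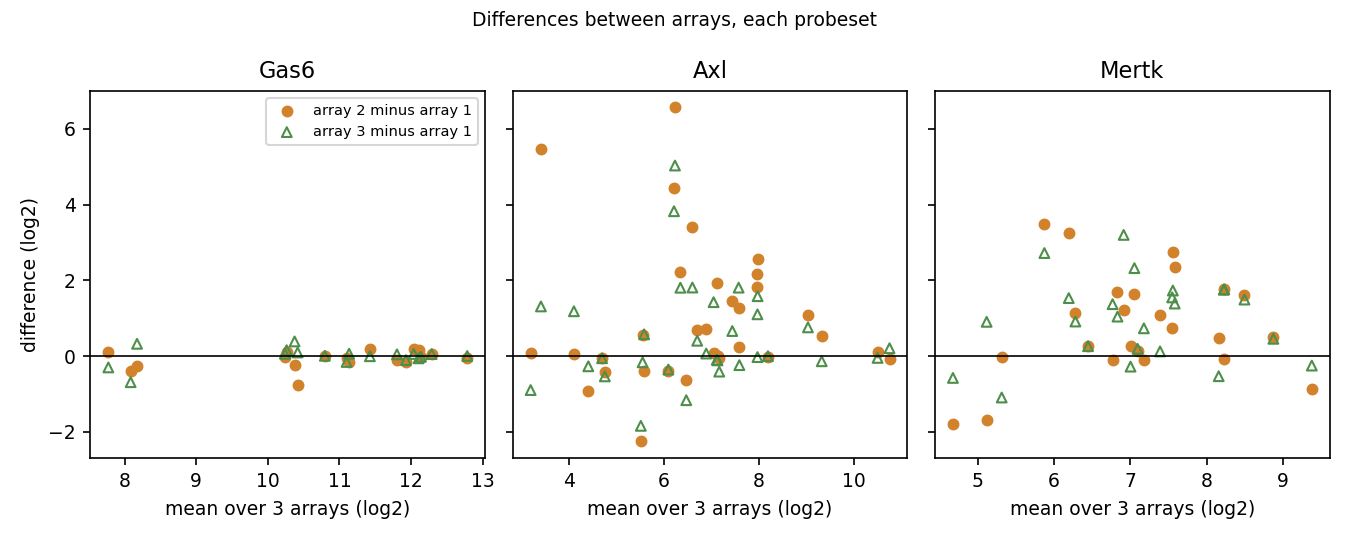
Difference between arrays (log2) of every Gas6, Axl and Mertk probeset against its mean over the 3 arrays (log2). Filled circles are array 2 minus array 1 and open triangles array 3 minus array 1. Gas6 probesets lie close to 0, while 12 of 32 Axl and 11 of 24 Mertk probesets lie at 1 or more for array 2 minus array 1.

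The sequences before the Axl and Mertk starts are shown because these were the 2 receptor genes with their lowest value on array 1. They are the 250 bases before the RefSeq starts in GRCm38.p6, at chr7:25788734-25788983 on the minus strand for Axl and chr2:128698665-128698914 on the plus strand for Mertk, with the GC box in capitals as above.
Axl: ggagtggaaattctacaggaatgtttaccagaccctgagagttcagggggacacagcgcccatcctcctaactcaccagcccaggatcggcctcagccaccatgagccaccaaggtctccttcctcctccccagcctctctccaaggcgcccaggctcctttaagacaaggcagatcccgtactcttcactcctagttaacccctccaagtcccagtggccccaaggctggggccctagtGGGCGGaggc
Mertk: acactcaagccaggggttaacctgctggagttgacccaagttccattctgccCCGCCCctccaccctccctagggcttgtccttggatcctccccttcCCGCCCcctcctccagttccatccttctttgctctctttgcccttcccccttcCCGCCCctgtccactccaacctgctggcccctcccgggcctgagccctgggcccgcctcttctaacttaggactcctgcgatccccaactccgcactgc
Axl holds 1 GC box, as GGGCGG, and Mertk holds 3, as CCGCCC. With 5 before Pros1 and 3 before Tyro3, each of the 5 windows had at least 1, and none had TATAAA on either strand. The share of G and C was 60.0% for Axl, 63.6% for Mertk and 54.8% for Gas6, and the median over all windows was 52.4%.

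Tyro3, the receptor best known from neurons, lay at the background. The values of arrays 1, 2 and 3 were 5.32, 5.19 and 5.71, with a mean of 5.41 ± 0.27 (SD, n = 3), with margins of -0.08, -0.47 and 0.07. It was above the threshold on array 3 alone. When probesets were averaged the margins were 0.10, -0.21 and -0.11, so the array on which it passed changed. Of 26 Tyro3 probesets 23 were above the probeset threshold on no array. The other 3 (11.5%) were above on all arrays, beside 24.8% of all probesets with 1 symbol. The share of all probesets above on no array was not computed. The highest, 4847944, had 10.32, 10.27 and 9.97, and the next, 4886420, had 9.32, 9.22 and 9.17, while the lowest, 4733912, had 2.38, 2.91 and 2.43. Values at the background do not show that the transcript was absent.

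**Figure D3:**
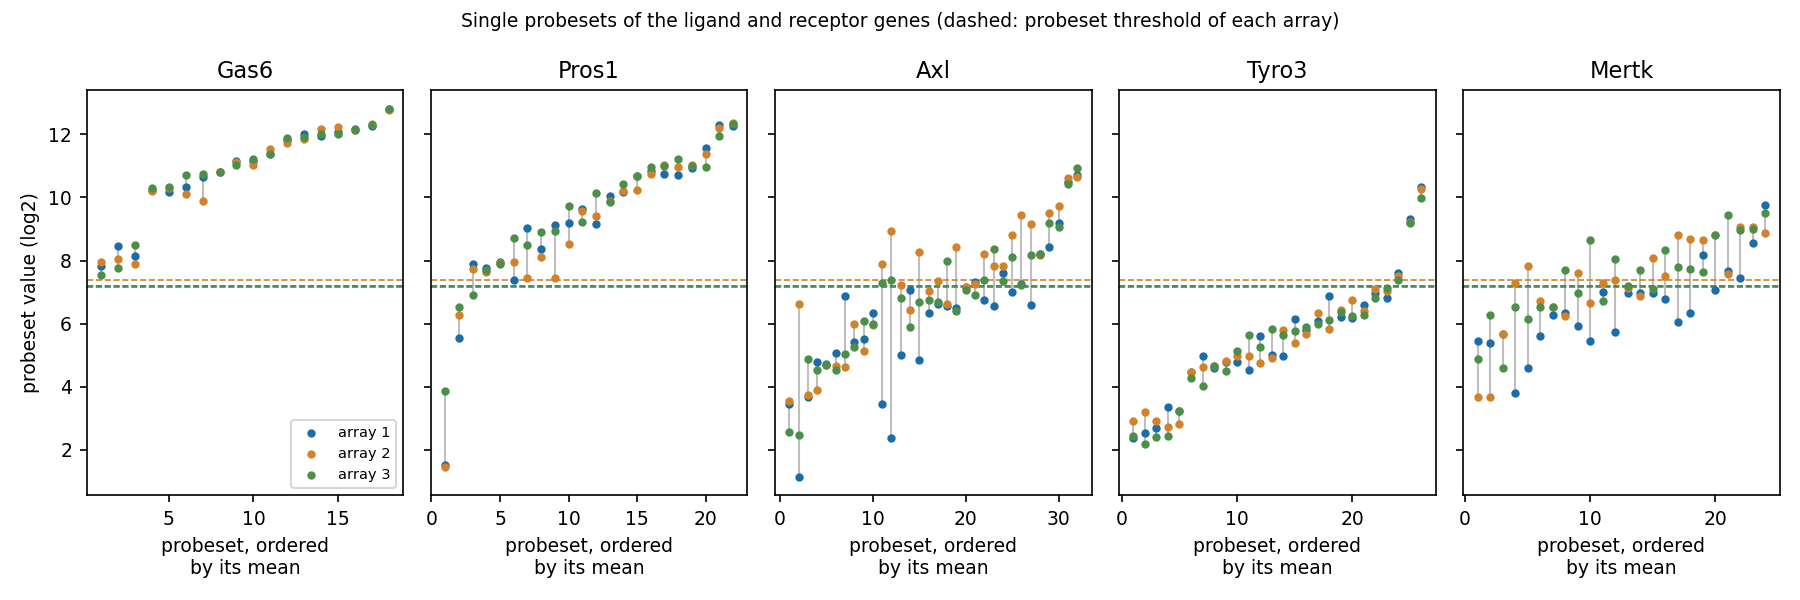
Values (log2) of every single probeset of Gas6, Pros1, Axl, Tyro3 and Mertk, ordered by mean within each gene, with 1 point per array and a grey line over the range of the 3 arrays. Dashed lines are each array's probeset threshold. All 18 Gas6 probesets lie above the lines, 23 of 26 Tyro3 probesets lie below them, and the longest grey lines are in Axl.

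The order of the arrays differed between the 5 genes. After removal of the median deviation over all genes, Axl deviated by -0.39, 0.39 and -0.01 from its mean on arrays 1, 2 and 3, and Mertk by -0.84, 0.29 and 0.55. Pros1 was lowest on array 1 as well (-0.18, -0.08 and 0.26), as 34.2% of all genes were. Gas6 (0.02, -0.06 and 0.04) and Tyro3 (-0.11, -0.23 and 0.34) were lowest on array 2. For Tyro3 the range of 0.57 between deviations became 0.02 with the mean over probesets. With that mean the ranges of Axl and Mertk were 1.015 and 1.007, so Mertk no longer had the widest, and that of Gas6 was 0.12, so it no longer had the narrowest.

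Markers of other cell types that a GFP gate could hold moved between the same arrays. The endothelial list had median deviations of 0.29, -1.13 and 0.73 on arrays 1, 2 and 3, and 15 of its 15 measured members were lowest on array 2, where 34.0% of all genes were lowest. The mean level over that list was 7.47, 5.94 and 7.77, with no member at 0. Axl, which was highest on array 2, ran opposite to this list between arrays 1 and 2. The perivascular stroma list was nearly level in its median deviations, with 0.06, -0.01 and -0.09, but its members moved in different directions. Pdgfra deviated by -0.33, 0.42 and -0.09 and Prrx1 by 0.38, -0.24 and -0.13 in array order. The osteoblast list had median deviations of 0.27, -0.25 and -0.10.

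Macrophages are the marrow cells best known for Mertk, and their list was near the background. Its median deviations were -0.01, 0.07 and 0.01, and its mean level was 5.58, 5.46 and 5.76 on arrays 1, 2 and 3, with no member at 0. The macrophage antigen gene Adgre1 had 4.33, 4.32 and 4.09, and the receptor gene Csf1r had 4.80, 4.53 and 5.31, so both were under the threshold on every array. The 4 members that passed were Mrc1 (8.39, 4.44 and 9.15, adjusted p = 0.0498, limma), Lyz2 (5.93, 6.72 and 8.03, adjusted p = 0.00445), C1qb (6.03, 6.56 and 6.74, adjusted p = 0.00225) and Cx3cr1 (6.44, 6.09 and 6.09, adjusted p = 0.0151). Of these Lyz2 and C1qb were lowest on array 1 and highest on array 3, as Mertk was, while Mrc1 was lowest on array 2 and Cx3cr1 highest on array 1. Over the whole list 4 of 14 genes were lowest on array 1 and 6 on array 3, beside 34.2% and 31.7% of all genes. The list's count was 2 without array 1, and Mrc1 also lost its call without array 3.

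Among the other lists, 3 of 10 pan-leukocyte genes and 2 of 7 megakaryocyte and platelet genes passed. So did 5 of 10 Schwann cell and neuron genes and 1 of 9 hepatocyte genes, beside 50.6% of all genes. Without 1 array the megakaryocyte count was 1 (without array 1 or 3) and the Schwann cell and neuron count 3 (without any 1 of them). The mean level of the pan-leukocyte list was 5.60, 5.42 and 5.87 on arrays 1, 2 and 3, that of the megakaryocyte list 5.83, 5.69 and 5.94, and no member of either was at 0. Ptprc, which encodes the leukocyte antigen CD45, had 4.54, 4.37 and 5.14 and lay under the threshold on every array. The 3 pan-leukocyte genes that passed were Lcp2 (8.98, 8.48 and 7.96, adjusted p = 1.17e-05, limma), Rac2 (7.20, 6.38 and 6.43, adjusted p = 0.00279) and Hcls1 (6.00, 5.69 and 7.04, adjusted p = 0.0347). Lcp2 also passed against the other-tissue threshold (adjusted p = 0.00123, limma), and Hcls1 lost its call without array 1 or without array 3. The part of these cell types in the values of Axl and Mertk was not tested.

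**Figure D4:**
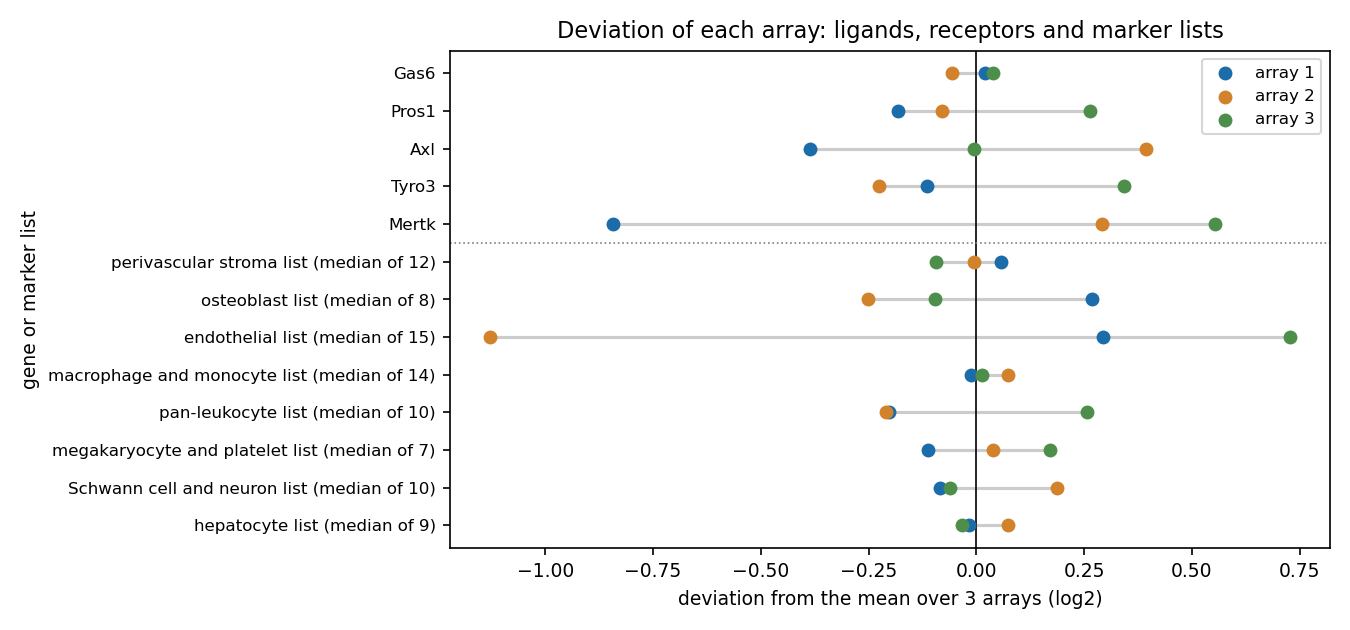
Deviation of arrays 1, 2 and 3 from the mean over the 3 arrays (log2, after removal of the median deviation over all genes) for the 5 genes and for the median of each marker list. Mertk runs from -0.84 on array 1 to 0.55 on array 3 and Axl from -0.39 on array 1 to 0.39 on array 2, while the endothelial list is at -1.13 on array 2 and the perivascular stroma list runs from -0.09 to 0.06.

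Genes with an array pattern most like that of Mertk were sought among the genes that passed limma's test. The measure was the largest absolute difference between deviations on any array. Mertk was the 1 gene of the 5 with a range of at least 1 by the median over probesets. The 5 nearest were Coprs (6.42, 7.48 and 7.73 on arrays 1, 2 and 3, largest difference 0.03), Fbxo38 (0.04), Iars2 (0.06), Eif4e3 (0.07) and Ston1 (0.07). With 3 arrays many genes share such a pattern, and 63 of 9547 were within 0.2 of it.

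The machinery that makes and uses these ligands was read from lists of 76 genes, of which 73 were measured. Of these 52 passed limma's test (71.2%), beside 50.6% of all genes, and the median margin was 1.56, beside 0.50 over all genes. These lists hold many genes that most cells express. The count was 21 against the other-tissue threshold, which 15.6% of all genes passed.

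Ligand carboxylation and processing genes passed limma's test against the threshold in 6 of 8 cases, beside 50.6% of all genes. Against the other-tissue threshold 3 of 8 passed (4 at an unadjusted p under 0.05), beside 15.6% of all genes. Vkorc1, the vitamin K epoxide reductase that warfarin inhibits, had 10.36, 10.71 and 10.40 on arrays 1, 2 and 3 (margin 4.92, adjusted p = 2.82e-07, limma), and its paralogue Vkorc1l1 had 8.25, 8.12 and 7.53. Calu, which encodes the calcium-binding protein calumenin of the secretory pathway, had 10.65, 10.20 and 10.20 (margin 4.78, adjusted p = 4.58e-07). Ggcx, the carboxylase that modifies Gla domains, had 7.31, 8.04 and 7.60 (margin 2.08, adjusted p = 1.63e-05). The convertase gene Pcsk7 passed (margin 0.66, adjusted p = 0.00884), and Aifm2, which encodes a vitamin K reductase, did not pass (0.35, adjusted p = 0.0854). Thus both enzymes at the core of the cycle, the carboxylase and the reductase, had signal on every array.

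Other Gla proteins that were measured mostly lay at the background, and 3 of 10 passed limma's test against the threshold, beside 50.6% of all genes. Bglap was also on the list but was not measured. Mgp, which encodes the matrix Gla protein that restrains mineralization, had 11.46, 12.05 and 10.21 (margin 5.67, adjusted p = 1.43e-06, limma). The transmembrane Gla protein genes Prrg3 (margin 1.05, adjusted p = 0.00138) and Prrg1 (0.79, adjusted p = 0.045) also passed, and Prrg1 lost its call without array 1 (adjusted p = 0.248) and without array 3 (adjusted p = 0.222). The coagulation factor genes did not pass, and F9 had 3.11, 3.25 and 2.89 and F2 4.47, 4.04 and 4.09. F7 had a margin of 0.20 (adjusted p = 0.255).

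Of 6 protein S partners, 2 passed limma's test against the threshold, beside 50.6% of all genes. Tfpi, which encodes the tissue factor pathway inhibitor for which protein S is a cofactor, had 9.998, 8.05 and 10.16 (margin 3.84, adjusted p = 3.31e-05, limma). Thbd, the endothelial thrombomodulin gene, had 8.55, 7.49 and 8.89 (margin 2.74, adjusted p = 3.33e-05). Both were lowest on array 2, as the endothelial list was, and the part of endothelial cells in them was not tested. Proc, the gene of protein C (5.08, 5.06 and 5.82), and Procr, the gene of its receptor (margin 0.41, adjusted p = 0.0651), did not pass.

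Of 3 other TAM ligands, 2 passed limma's test against the threshold, beside 50.6% of all genes. Tulp1 (6.55, 6.28 and 6.38, adjusted p = 0.00327, limma) and Lgals3, which encodes galectin-3 (5.95, 6.21 and 5.95, adjusted p = 0.0324), passed, and Tub (5.86, 5.88 and 6.13, adjusted p = 0.0621) did not. Lgals3 lost its call without any 1 of the arrays (adjusted p from 0.0667 to 0.149). None of these 3 genes passed limma's test against the other-tissue threshold, where 0 had an unadjusted p under 0.05.

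Genes of receptor shedding and turnover passed limma's test against the threshold in 7 of 7 cases, beside 50.6% of all genes. Against the other-tissue threshold 3 of 7 passed (4 at an unadjusted p under 0.05), beside 15.6% of all genes. Adam10 (8.61, 8.52 and 8.48) and Adam17 (8.13, 7.20 and 7.99) encode the proteases that shed Axl and Mertk from the surface. Ranbp9, an Axl-binding scaffold, had 9.20, 9.96 and 9.84 (margin 4.10, adjusted p = 5.75e-07, limma), and the ubiquitin ligase gene Cblb had 9.18, 9.23 and 9.49 (margin 3.74, adjusted p = 6.51e-07). Tnk2, a kinase gene, also passed (margin 0.86, adjusted p = 0.00188).

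Signalling genes that act after the receptors passed limma's test against the threshold for 12 of 13 adaptors and kinases, beside 50.6% of all genes. Against the other-tissue threshold 5 of 13 passed (6 at an unadjusted p under 0.05), beside 15.6% of all genes. Pik3r1, the regulatory subunit gene of PI3 kinase, had 9.08, 9.59 and 9.33 (margin 3.77, adjusted p = 6.38e-07, limma), and the adaptor gene Crk had 8.51, 8.21 and 8.12 (margin 2.71, adjusted p = 4.98e-06). The adaptor gene Nck2 passed (margin 0.67, adjusted p = 0.0157) and lost its call without array 1 (adjusted p = 0.0672). The kinase gene Fyn did not pass (6.30, 5.31 and 7.36, adjusted p = 0.0592), and it passed without array 2 (adjusted p = 3.41e-05), a fit in which limma gave every gene the same variance.

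The TAM receptors dampen innate immune signalling through the type I interferon receptor and SOCS proteins. All 4 measured genes of that list passed limma's test against the threshold, beside 50.6% of all genes. Against the other-tissue threshold 1 of 4 passed (2 at an unadjusted p under 0.05), beside 15.6% of all genes. Ifnar2 had 10.79, 10.93 and 10.59 (margin 5.20, adjusted p = 2.69e-07, limma), and Ifnar1 7.80, 7.50 and 7.35 (margin 1.99, adjusted p = 3.15e-05). Socs1 had 7.20, 7.25 and 6.93 (margin 1.56, adjusted p = 8.6e-05). Socs3, which is induced by cytokines and by stimulation, had 6.62, 8.09 and 7.04. It was lowest on array 1, as 34.2% of all genes were, while the other 3 genes of the list were lowest on array 3.

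**Figure D5:**
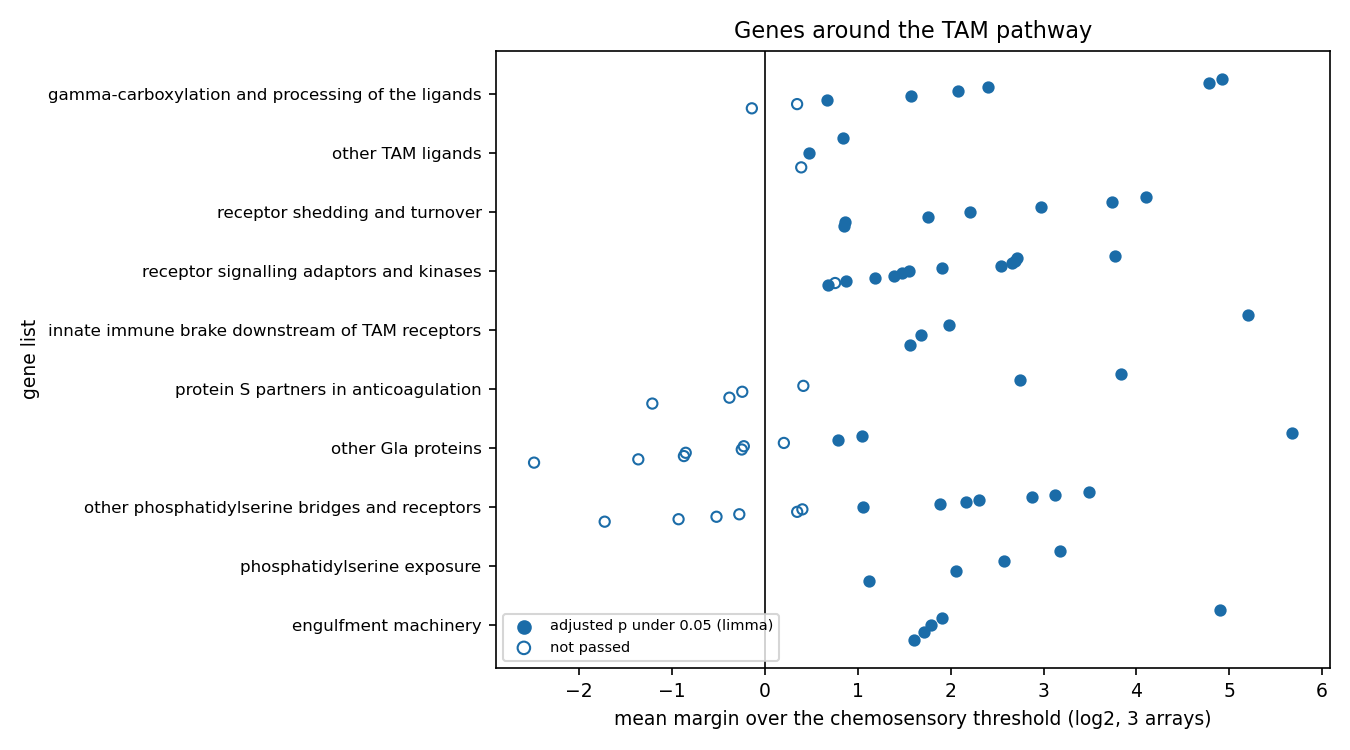
Mean margin over the chemosensory threshold (log2, over 3 arrays) of the 73 measured genes around the TAM pathway, by list, 1 point per gene. Filled points passed limma's test (adjusted p under 0.05) and open points did not. Of 7 shedding and turnover genes 7 are filled, while 3 of 10 other Gla proteins are.

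Other bridges and receptors for phosphatidylserine passed limma's test against the threshold in 7 of 13 cases (53.8%), near the 50.6% of all genes. The integrin gene Itgav had 8.87, 9.30 and 9.01 (margin 3.49, adjusted p = 8.67e-07, limma), and Lrp1, an endocytic receptor gene, had 8.50, 9.02 and 8.57 (margin 3.13, adjusted p = 1.65e-06). Mfge8, which encodes a bridge between phosphatidylserine and integrins, had 7.15, 7.89 and 7.31. The scavenger receptor genes Stab1 (6.83, 5.85 and 7.16), Stab2 (8.19, 5.88 and 9.55) and Cd36 (9.84, 5.80 and 9.68) were lowest on array 2. So was the endothelial list, of which Stab2 is itself a member. All of these 3 scavenger receptor genes lost their calls without array 1 (adjusted p from 0.0746 to 0.0904). The count of other phosphatidylserine bridges and receptors was then 4. The phagocyte receptor gene Timd4 had 4.88, 4.55 and 4.47 and lay under the threshold, and Adgrb1 did not pass (margin 0.40, adjusted p = 0.0554).

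Genes that control whether phosphatidylserine is exposed, or that take up the bound cell, completed the lists. All 4 measured genes of the first kind passed, beside 50.6% of all genes. Against the other-tissue threshold 2 of 4 passed (3 at an unadjusted p under 0.05), beside 15.6% of all genes. The scramblase genes, which act towards exposure, were Ano6 (8.12, 8.33 and 7.97, adjusted p = 4.37e-06, limma) and Xkr8 (7.44, 6.51 and 6.12, adjusted p = 0.006). The flippase genes, which act against it, were the subunit gene Tmem30a (9.04, 8.75 and 8.45, adjusted p = 2.9e-06) and Atp11a (7.62, 7.81 and 7.43). All 5 engulfment genes passed, and 1 of 5 passed against the other-tissue threshold (2 at an unadjusted p under 0.05). Rac1, the small GTPase gene, had 10.60, 10.41 and 10.40 (adjusted p = 3.12e-07), the lipid transporter gene Abca1 7.51, 7.31 and 7.61 (adjusted p = 2.44e-05), and the adaptor gene Gulp1 7.61, 7.48 and 6.41 (adjusted p = 0.000664). These genes are broadly expressed, and nothing particular to the sorted cells is read from the counts.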

How the data were processed

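RNA of 3 sorted samples was measured on Affymetrix arrays. The deposited log2 expression values per probeset came from RMA in Affymetrix Expression Console 1.1, run by the authors, per the submitters' processing notes. Neither its settings nor the build behind the annotation is given in the sources used here. RMA brings the arrays to a common distribution, so a shift shared by all genes cannot be seen. Of 1256831 probesets per array (log2 values from 0 to 13.74), 318760 had 1 gene symbol in a table of the platform's annotation, 6684 had several and 931387 are unnamed here. Former symbols were updated through RefSeq (GRCm38.p6), which changed 4227 symbols. Genes needed at least 4 probesets. No probeset of the 5 genes was at 0.

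Margins over the array thresholds were fitted with an intercept-only model in limma 3.58.1 (R 4.3.3), one-sided, with Benjamini-Hochberg adjustment over all 18865 genes, and the fit was tested on simulated data. The genes and lists were chosen with earlier results of these data known. Named were, of each pathway list, the 2 genes with the largest margin and the 1 with the smallest margin among those that passed, and the 1 with the largest margin among those that did not; of each of the 5 genes the highest and lowest probeset; other genes were named for their role after their values were seen, and of the marker lists only genes that bear on a result are printed. Upstream sequences are from RefSeq (GRCm38.p6), where all 5 genes matched. Alternatives were the mean or 75th percentile over probesets, other thresholds, gene filters and array centring, and leaving out each array.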

Additional observations from a re-analysis of the deposited data

How the results depend on the processing

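Of 124 comparisons with an alternative setting, 91 kept the direction and lay within the spread or within 1.5 times the count. Leaving out 1 array cannot move the level or margin of a gene by more than the SD of the 3 arrays. Those comparisons were therefore kept by construction, and the count of 91 is no measure of robustness. The count of the 5 genes above the threshold on all arrays was 4 with the mean, the 75th percentile or without any 1 array, and 2 against both the 99th percentile of the chemosensory genes and the other-tissue threshold. With the mean over probesets the levels of Gas6 and Pros1 were 10.83 and 9.24, and with the 75th percentile those of Gas6, Pros1, Axl, Tyro3 and Mertk were 12.01, 10.87, 7.91, 6.40 and 8.03. In the same order of genes, the margins were 4.33, 2.77, 0.12, -1.39 and 0.36 over the 99th percentile and 4.03, 2.47, -0.18, -1.68 and 0.065 over the other-tissue threshold, where the sign turned for Axl. With the mean over probesets the margins of Gas6 and Pros1 were 5.28 and 3.70. Over the 99th percentile of single probesets on all arrays, 15 Gas6, 12 Pros1, 3 Axl, 2 Tyro3 and 0 Mertk probesets remained above. These genes have 18, 22, 32, 26 and 24 probesets in that order. Of all probesets with 1 symbol 8.64% remained above. Over the 95th percentile, leaving out each array gave 7 to 13 for Axl and 5 to 9 for Mertk, counts that leaving out an array cannot lower. After removal of the median deviation over all genes, the range of Tyro3 between arrays was 0.022 with the mean over probesets, and the cause was not tested. Over the other-tissue threshold limma called 11 of 12 perivascular stroma genes, 0 of 15 endothelial genes (3 at an unadjusted p under 0.05) and 0 of 14 macrophage and monocyte genes (0 unadjusted), and over the chemosensory threshold the endothelial count was 8 without array 1. Limma called 28 pathway genes, 19 marker genes and 3797 of all genes over the 99th percentile, and 21, 19 and 2941 over the other-tissue threshold. Leaving out each array gave 46 to 52 pathway genes, 36 to 47 marker genes and 8559 to 9158 of all genes. Centring the arrays changes no margin by construction, and no probeset of the 5 genes names several genes or is at 0, so those settings could not move their values. Signal near background limits Tyro3, Axl and Mertk. No paired analysis was possible because there is 1 group.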
